A study of Mus musculus with 6 samples.

Results

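The erythroid priming genes described here are 9 genes of red blood cell development whose transcripts were counted in hematopoietic stem cells (HSCs), namely *Gata1*, *Klf1*, *Car1*, *Car2*, *Tfrc*, *Ache*, *Ermap*, *Gypc*, and *Aqp1*. They were taken by symbol from a table of normalized counts, that is, the reads of each gene divided by 1 size factor per library. All 9 were among the 26264 genes of this table. All 9 also passed the filter on low values, a mean normalized count of at least 10, which left 17404 genes for testing. Bulk RNA-seq was performed on HSCs sorted from bone marrow as lineage-negative Sca1+ cKit+ CD150+ CD48- cells, with 1 library per mouse. The mice were untreated females, 8 weeks old, of which 3 were WT (C57Bl/6) and 3 were *Irf1-/-* (B6.129S2-Irf1 tm1Mak/J). The *Irf1-/-* mice lacked a functional gene in the whole body, so HSCs and the cells around them differed between the groups alike. The comparison asks how the transcripts of HSCs differ when IRF1, a transcription factor of the interferon response, is missing. Libraries are given by the replicate numbers 2, 3, and 4 in both genotypes.

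Reads on genes numbered 59658080 (replicate 2), 45332573 (replicate 3), and 43267486 (replicate 4) in WT libraries. In *Irf1-/-* libraries they numbered 43138521, 57281017, and 45129929 for the same replicate numbers. The member with the fewest reads in a library, *Ermap*, had between 33 and 607 reads, and *Car2* had between 64277 and 110559.

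Commitment of blood progenitors to the red cell lineage is driven by GATA1 and its partners, which switch on KLF1, and both factors then activate genes for hemoglobin, heme, iron uptake, and the red cell membrane. HSCs hold low levels of some of these transcripts long before any hemoglobin is made, a state called lineage priming. Erythroid and megakaryocytic priming overlap, since GATA1 serves both lineages.

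*Irf1* itself had normalized counts of 10122, 11120, and 12057.5 in WT replicates 2, 3, and 4 and of 9267, 9524, and 9287 in the *Irf1-/-* replicates. All *Irf1-/-* values were below all WT values, but the log2 fold change was only −0.24 (0.0876 SE, limma adjusted *P* = 0.170). Counts here cover the whole gene and do not separate its deleted part, so this transcript is a weak check of the labels. The HSC label was checked against 10 marker genes, all of which passed the filter in these libraries. Of these, *Kit* (82582 normalized counts in WT against 82175 in *Irf1-/-* HSCs) was the most abundant. *Fgd5* was called higher (log2 fold change 0.83), also in all 6 fits that left out 1 library, and no HSC marker was called lower. Limma without the intensity trend called no HSC marker in either direction. When WT replicate 2 was left out, 2 HSC markers were called higher. At an unadjusted *P* under 0.05 in limma 1 of the 10 was lower and 5 higher. The lower one, *Ly6a*, which encodes Sca1 of the sort and was singled out after its values were seen, missed the fold change threshold. It had 6908, 7439, and 7692 normalized counts in WT replicates 2, 3, and 4 and 4974, 6047, and 5376 in the *Irf1-/-* replicates (log2 fold change −0.43 ± 0.0944 SE, limma adjusted *P* = 0.0245). The α- and β-globin genes that mark erythroblasts, *Hba-a1*, *Hba-a2*, *Hbb-bs*, and *Hbb-bt*, were at 0 in all 6 libraries. Near-identical genes like these can lose all reads in counting, so their zeros do not show that erythroblasts were absent. WT replicate 4 stood apart in neutrophil transcripts, such as *Ngp*, singled out after its values were seen, with 2535 normalized counts there against 30.4 and 24.8 in WT replicates 2 and 3. The members called lower were therefore also examined without this library, and *Klf1*, *Car1*, and *Ache* were all still called.

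Of the 9 erythroid priming genes, *Klf1*, *Car1*, and *Ache* were lower in *Irf1-/-* HSCs, and *Gata1* narrowly missed the threshold. The call required a limma adjusted *P* under 0.05 together with a log2 fold change beyond 0.58 in either direction. By this rule 3 of 9 members were called lower, against 166 of 17404 genes (0.954%). edgeR and DESeq2 each called 2 members lower (*Klf1* and *Ache*), against 162 and 209 genes. Limma without the intensity trend called 0 members lower, against 33 genes. No member was called higher by limma, edgeR, or DESeq2, against 167 (0.96%), 165, and 295 genes. At an unadjusted *P* under 0.05 in limma 6 members were lower and 0 higher, against 1404 (8.07%) and 1459 (8.38%) of all tested genes. All 3 *Irf1-/-* values lay below all 3 WT values for 5 of 9 members (*Gata1*, *Klf1*, *Car1*, *Car2*, and *Ache*), against 1614 genes (9.27%). They lay above for 0 members, against 1853 genes (10.6%), where chance gives 5% in each direction. The log2 fold change was negative for 8 of 9 members, with a median of −0.66, whereas it was negative for 50.4% of all tested genes, with a median of −0.0028. The members' median was −0.42 when WT replicate 3 was left out and −0.50 when *Irf1-/-* replicate 3 was, and 1 member was called lower in each of these fits. In sorted bulk HSCs, fewer cells that hold a transcript and less of it per cell cannot be told apart.

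**Figure D1:**
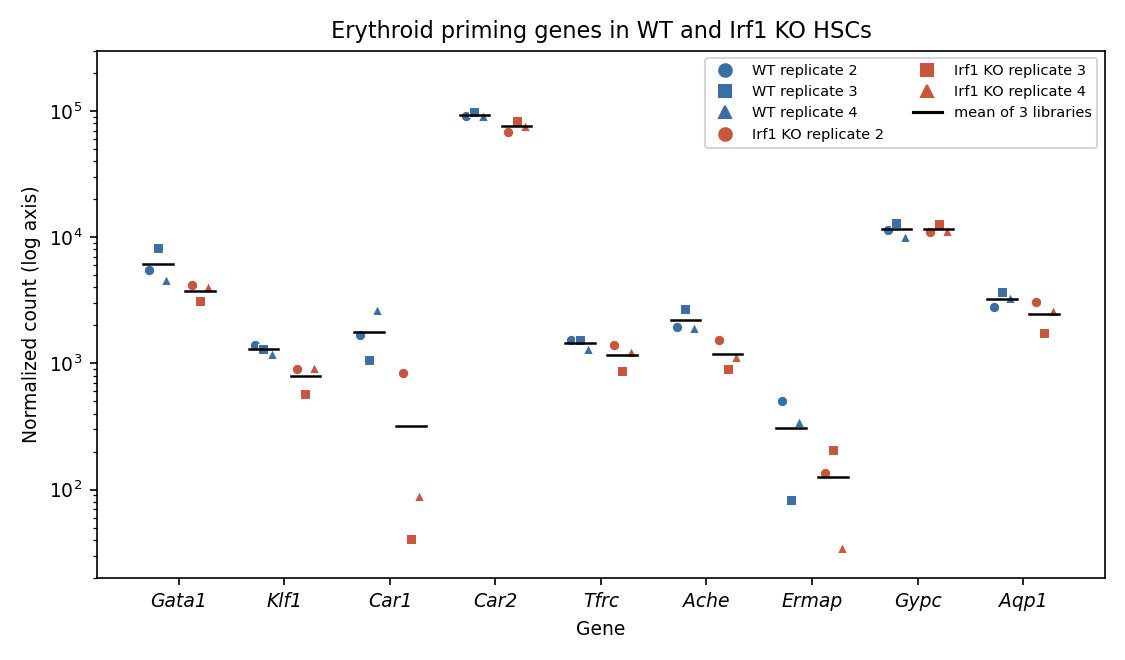
Normalized counts (log axis) of the 9 erythroid priming genes in each library, with WT in blue and *Irf1-/-* in red, a symbol shape for each replicate number, and a black bar for the mean of 3 libraries. *Car1* in *Irf1-/-* HSCs is spread from 40.6 to 836, all below the lowest WT value of 1062, and the values of *Gypc* overlap.

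*Gata1* encodes the zinc finger factor that directs erythroid and megakaryocytic gene expression. It had 5453, 8221, and 4557 normalized counts in WT replicates 2, 3, and 4 and 4168, 3102, and 4011 in the *Irf1-/-* replicates. Every *Irf1-/-* value was below every WT value, although the gap between the groups (389 normalized counts) was small beside the WT spread, in which replicate 3 was far above the others. The means were 6077 ± 1910 (SD, *n* = 3) in WT against 3761 ± 575 in *Irf1-/-* HSCs. The log2 fold change was −0.66 (0.174 SE, limma adjusted *P* = 0.0575), so *Gata1* was not called. It passed the threshold under 4 of 16 alternatives, among them the fit without WT replicate 4 (−0.84, limma adjusted *P* = 0.0106), and the adjusted *P* reached 0.400 among the others. When replicate 3 of WT was left out the fold change shrank to −0.42 (limma adjusted *P* = 0.176), and when replicate 3 of *Irf1-/-* mice was, to −0.53 (adjusted *P* = 0.163).

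*Klf1* encodes the Krüppel-like factor required for β-globin expression and for many steps of red cell maturation. It had 1396, 1290.4, and 1182 normalized counts in WT replicates 2, 3, and 4 and 901, 569, and 924 in the *Irf1-/-* replicates. The groups did not overlap, the WT values were close together, and *Irf1-/-* replicate 3 was the lowest. *Klf1* fell from 1289 ± 107 to 798 ± 198 (SD, *n* = 3), which was 61.9% of the WT mean (log2 fold change −0.72 ± 0.172 SE, limma adjusted *P* = 0.0361). The fold change shrank most without *Irf1-/-* replicate 3, but the call also failed in other fits that left out 1 library. It was lost without *Irf1-/-* replicate 2 (−0.83, limma adjusted *P* = 0.0583), *Irf1-/-* replicate 3 (−0.50, adjusted *P* = 0.0700), WT replicate 2 (−0.66, adjusted *P* = 0.117), or WT replicate 3 (−0.72, adjusted *P* = 0.109). Over all 16 alternatives the adjusted *P* ranged from 0.00187 (DESeq2) to 0.316 (limma without the intensity trend), and the log2 fold change from −0.84 to −0.50.

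Among 23 transcription factors of blood cells, a list not limited to the erythroid lineage, only *Klf1* was called in limma on all 6 libraries. *Klf1* was called lower and no factor higher. At an unadjusted *P* under 0.05 in limma, 3 factors were lower, among them *Gata1* and *Klf1*, and 4 were higher. edgeR and DESeq2 called 1 of them lower and 0 higher. The median log2 fold change of the list was 0.060, and 15 of 23 values were positive. When single libraries were left out, 3 factors were called lower in the absence of WT replicate 4, 1 in that of *Irf1-/-* replicate 4, and 0 in each of the other 4 fits. The most abundant were *Lmo2*, a bridging factor of the GATA1 complex, with 54011 ± 1807 normalized counts in WT against 52003 ± 4681 in *Irf1-/-* HSCs (SD, *n* = 3), and *Nfe2*, with 44499 ± 2048 and 46680.4 ± 3935. The values of both overlapped between genotypes.

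*Car1* and *Car2* encode cytosolic carbonic anhydrases, which convert carbon dioxide and bicarbonate in red cells. *Car1* showed the largest difference among the members. Its normalized counts were 1666, 1062, and 2638 in WT replicates 2, 3, and 4 and 836, 40.6, and 89.3 in the *Irf1-/-* replicates. All *Irf1-/-* values were below the WT values, but they differed 20.6-fold among themselves, with replicates 3 and 4 near the bottom and replicate 2 close to the lowest WT value. The mean was 1788 ± 795 (SD, *n* = 3) in WT against 322 ± 446 in *Irf1-/-* HSCs, 18% of WT. On the log2 scale *Car1* fell by 3.51 (0.742 SE, limma adjusted *P* = 0.0200), a fold larger than the ratio of the means because each library weighs alike on that scale. The call was lost without *Irf1-/-* replicate 3 (−2.60, limma adjusted *P* = 0.0603) or *Irf1-/-* replicate 4 (−3.16, adjusted *P* = 0.0681). On the reads recovered from the table, *Car1* was not called by edgeR (−2.48, adjusted *P* = 0.0887) or by DESeq2 (−2.47, adjusted *P* = 0.198). Over all 16 alternatives the adjusted *P* ranged from 3.44e-05 (without *Irf1-/-* replicate 2) to 0.344 (limma without the intensity trend), and the log2 fold change from −4.77 to −2.47.

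*Car2* was the most abundant member, in the top 1% of genes by WT level. It had 90980.4, 98353, and 90457 normalized counts in WT replicates 2, 3, and 4 and 68522, 84030, and 75844 in the *Irf1-/-* replicates. The groups did not overlap, yet the difference was modest, with an *Irf1-/-* mean of 81.6% of WT. The log2 fold change was −0.30 (0.104 SE, limma adjusted *P* = 0.153), and *Car2* was called under none of the 16 alternatives (adjusted *P* between 0.0169 and 0.457), since its fold change missed the threshold also where the *P* did not. Its 95% interval ran from −0.52 to −0.074 and did not reach the threshold of the call.

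Of the 14 carbonic anhydrase genes tested, *Car1* was called lower and *Car11*, a family member without catalytic activity, was called higher. *Car11* had 165, 135, and 110 normalized counts in WT replicates 2, 3, and 4 and 228, 321, and 438 in the *Irf1-/-* replicates (log2 fold change 1.23 ± 0.274 SE, limma adjusted *P* = 0.0266). This call was lost without *Irf1-/-* replicate 3 or 4 or WT replicate 3 (adjusted *P* up to 0.162, limma). Quantile normalization and limma without the intensity trend also ended the call of *Car11*. Next to *Car2*, the most abundant gene of the family was *Car1* in WT and *Car9*, encoding a membrane-bound form, over all 6 libraries. *Car9* had 1177 ± 77.6 normalized counts in WT against 1179 ± 56.1 in *Irf1-/-* HSCs (SD, *n* = 3). The family's median log2 fold change was −0.070, with no stable sign. It was 0.14 when *Irf1-/-* replicate 3 or WT replicate 4 was left out and −0.24 when *Irf1-/-* replicate 2 was.

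*Tfrc* encodes transferrin receptor 1 (CD71), through which erythroid precursors take up iron. It had 1526, 1538, and 1291 normalized counts in WT replicates 2, 3, and 4 and 1403, 873, and 1231 in the *Irf1-/-* replicates. *Irf1-/-* replicate 3 was well below all others, while *Irf1-/-* replicate 2 exceeded WT replicate 4. The difference was not larger than the spread between mice by the test used (log2 fold change −0.34 ± 0.159 SE, limma adjusted *P* = 0.315), and the fold change was −0.14 when *Irf1-/-* replicate 3 was left out.

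Among 23 genes of iron uptake and handling, none was called lower and *Trf*, which encodes transferrin, was called higher. At an unadjusted *P* under 0.05 in limma, 4 were lower and 1 higher. edgeR called 0 lower and 1 higher, and DESeq2 called 2 lower and 1 higher. *Trf* rose from 4257 ± 228 to 6607 ± 324 normalized counts (SD, *n* = 3), a log2 fold change of 0.63 (0.0871 SE, limma adjusted *P* = 0.00111). It was called in all 6 fits that left out 1 library, but not in limma without the intensity trend. The ferritin chains *Ftl1* (94022 in WT against 110737 in *Irf1-/-* HSCs) and *Fth1* (49631 and 50275) were the most abundant. The median log2 fold change of this list was 0.0079, and it was negative in 3 of 6 fits that left out 1 library. Without WT replicate 4, 1 gene of the list was called lower.

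*Ache* encodes acetylcholinesterase, which is carried on the red cell surface and is also made by mouse megakaryocytes. It had 1955, 2699, and 1921 normalized counts in WT replicates 2, 3, and 4 and 1532, 909.9, and 1125 in the *Irf1-/-* replicates. The groups were apart, with replicate 3 the highest of WT and the lowest of *Irf1-/-* libraries. *Ache* fell from 2192 ± 440 to 1189 ± 316 (SD, *n* = 3), 54.2% of WT, with a log2 fold change of −0.90 (0.177 SE, limma adjusted *P* = 0.0135). Of the members it held its call most often, under 14 of 16 alternatives, edgeR and DESeq2 included. It was lost in limma without the intensity trend (adjusted *P* = 0.281) and without WT replicate 3 (−0.74, adjusted *P* = 0.0633). The adjusted *P* was as low as 4.07e-05 among the alternatives.

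*Aqp1*, *Ermap*, and *Gypc* also encode proteins of the red cell membrane, and none of them was called. *Aqp1*, the water channel of red cells, had 2793, 3663, and 3279 normalized counts in WT replicates 2, 3, and 4 and 3042, 1729, and 2607 in the *Irf1-/-* replicates. *Irf1-/-* replicate 2 lay within the WT range and replicate 3 far below it (log2 fold change −0.43 ± 0.169 SE, limma adjusted *P* = 0.211), and the fold change was −0.20 when this replicate 3 was left out.

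*Ermap* encodes an erythroblast membrane protein that carries the Scianna blood group antigens. It was the least abundant member and the most variable in WT, with 499.5, 83.4, and 342 normalized counts in WT replicates 2, 3, and 4 and 134, 207, and 34.3 in the *Irf1-/-* replicates. The values differed 5.99-fold within WT and 6.03-fold within *Irf1-/-* libraries, and WT replicate 3 was below *Irf1-/-* replicates 2 and 3. Its log2 fold change of −1.29 was larger than that of *Ache*, but so was its error (0.638 SE, limma adjusted *P* = 0.340). The value was −0.54 without *Irf1-/-* replicate 4, −0.77 when WT replicate 2 was left out, and −2.06 when WT replicate 3 was. The 95% interval, −2.66 to 0.079, did not separate a large fall from none.

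*Gypc* encodes glycophorin C, which anchors the membrane skeleton of red cells. Its normalized counts were 11465, 12957, and 10117 in WT replicates 2, 3, and 4 and 10957, 12676, and 11292 in the *Irf1-/-* replicates. The groups overlapped fully, and the log2 fold change was 0.02 (0.102 SE, limma adjusted *P* = 0.956). Its 95% interval, −0.20 to 0.24, lay inside the threshold of 0.58 on both sides. The sign turned negative after median centring and without *Irf1-/-* replicate 3 or WT replicate 4, so *Gypc* had no direction.

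Among 43 tested genes of the red cell membrane and blood group proteins, *Ache* was called lower and *Bcam*, which carries the Lutheran antigens, was called higher. *Bcam* had 987, 967, and 876 normalized counts in WT replicates 2, 3, and 4 and 1718, 1974, and 1467 in the *Irf1-/-* replicates. Its values were separate between genotypes and rose by 0.86 on the log2 scale (0.129 SE, limma adjusted *P* = 0.00231), with a call in all 6 fits that left out 1 library. The call of *Bcam* ended in limma without the intensity trend. The most abundant genes of the list were *Actb*, encoding β-actin (130693 in WT against 114198 in *Irf1-/-* HSCs), and *Tpm3*, encoding a tropomyosin (30026 and 26762). Neither was called. Of its genes, 9 were lower and 3 higher at an unadjusted *P* under 0.05 in limma. The count called lower was 2 when *Irf1-/-* replicate 2 or WT replicate 4 was left out and 0 when WT replicate 3 was. The median log2 fold change of the list was −0.055, and between −0.11 and −0.032 in these fits.

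**Figure D2:**
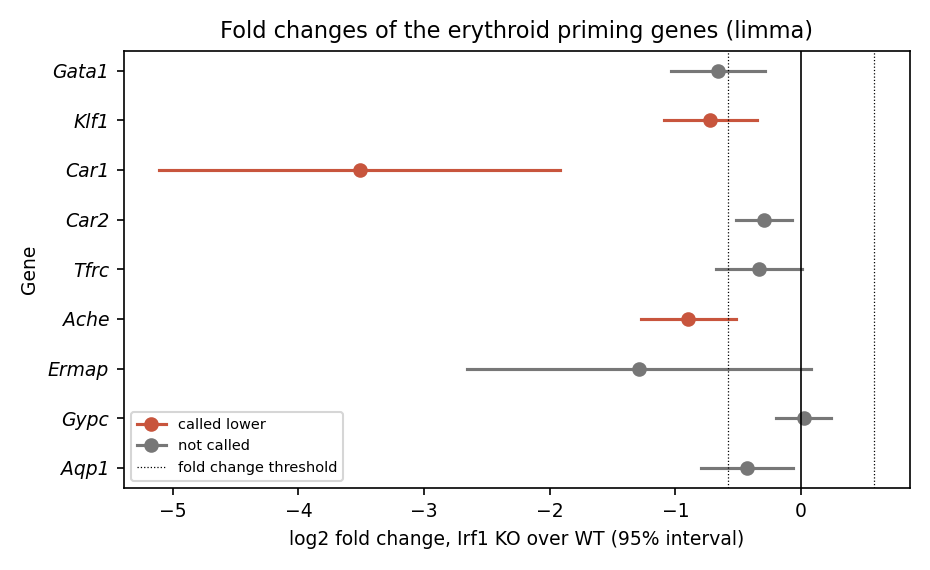
Log2 fold changes (*Irf1-/-* over WT, on the log2(normalized count + 1) scale) of the 9 erythroid priming genes from limma, with 95% intervals as horizontal lines, members called lower in red, and the fold change threshold of 0.58 as dotted lines. *Car1* has the largest fall (−3.51) with a wide interval, and *Gypc* sits at 0.02.

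The members differed in how much single mice weighed. *Irf1-/-* replicate 3 was the lowest of the 6 libraries for 6 of 9 members (*Gata1*, *Klf1*, *Car1*, *Ache*, *Tfrc*, and *Aqp1*), and WT replicate 3 was the highest for 6 members. By its mean deviation, *Irf1-/-* replicate 2 was nearest to WT. The mean deviation of the 9 members from their own 6-library log2 mean was 0.0074 in *Irf1-/-* replicate 2, −0.72 in replicate 3, and −0.64 in replicate 4. In WT it was 0.53, 0.36, and 0.47 for replicates 2, 3, and 4. *Car1* weighed most in these means, with deviations from −3.57 to 2.41. In *Irf1-/-* replicate 4, *Car1* (−2.45) and *Ermap* (−2.14) carried most of the mean, and the other members lay between −0.49 and −0.031.

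The order of levels was compared per kb of merged exons (GENCODE vM1). In WT HSCs, *Car2* stood first with a mean of 52132 normalized counts per kb, about an order of magnitude above *Gypc* (4939). *Gata1* (2493), *Car1* (1516), and *Aqp1* (1235) came next, and neighbours among these overlapped between mice. *Klf1* (841), *Ache* (474), *Tfrc* (235), and *Ermap* (58.2) followed without overlap of neighbours. The order in *Irf1-/-* HSCs began in the same way, with *Car2* (42556 normalized counts per kb), *Gypc* (4994), and *Gata1* (1542). *Car1* (273) came after *Aqp1* (936) and *Klf1* (520), a move from rank 4 to rank 6, but its range overlapped those of *Aqp1*, *Klf1*, *Ache* (257), *Tfrc*, and *Ermap*, so its rank is not resolved. *Tfrc* (189), which overlapped *Ache*, and *Ermap* (23.6) were again the lowest.

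Genes for heme synthesis, which follow *Gata1* and *Klf1* in erythroid development, included none that passed the threshold. Of 17 tested, 14 had negative log2 fold changes (median −0.16). All *Irf1-/-* values were below all WT values for 5 of the 17 genes and above for 1. None was called in either direction by limma, edgeR, or DESeq2, and at an unadjusted *P* under 0.05 in limma 4 were lower and 0 higher. When *Irf1-/-* replicate 3 or WT replicate 4 was left out, 1 was called lower, and when WT replicate 3 was, the median was −0.095. *Slc25a39*, a mitochondrial carrier, was the most abundant (11332 ± 897 in WT against 10937 ± 1014 in *Irf1-/-* HSCs, SD, *n* = 3), followed by *Pgrmc1*, which encodes a heme-binding membrane protein (10365 ± 512 and 10296 ± 643). Of the 11 genes in the list of globins and their chaperone, only the chaperone gene *Ahsp* passed the filter. It had 173 ± 114 normalized counts in WT against 117 ± 82.1 in *Irf1-/-* HSCs with full overlap, and 7 globin genes were at 0 in all libraries.

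Genes of signaling from the erythropoietin receptor, which keeps erythroid progenitors alive, were set beside the members. Of 17 genes tested, none was called lower and 1 was called higher in limma, edgeR, and DESeq2, and at an unadjusted *P* under 0.05 in limma 0 were lower and 6 higher. All *Irf1-/-* values lay above all WT values for 7 of the 17 genes and below for 1. The called gene was *Socs3*, a feedback inhibitor of cytokine receptors. It had 694, 568, and 892 normalized counts in WT replicates 2, 3, and 4 and 1562, 1724, and 1541 in the *Irf1-/-* replicates (log2 fold change 1.19 ± 0.154 SE, limma adjusted *P* = 7.37e-04) and was called in all 6 fits that left out 1 library. Limma without the intensity trend did not call *Socs3*. The most abundant genes were *Kit*, given above, and *Ptpn6*, which encodes a phosphatase that dampens receptor signaling (26637 in WT against 27938 in *Irf1-/-* HSCs). The count called higher was 2 when *Irf1-/-* replicate 3 was left out and 3 when WT replicate 2 was. The median log2 fold change of the list was 0.068.

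Some megakaryocyte markers were lower together with the called members. Of 13 tested, 5 were called lower (*Pf4*, *Gp1bb*, *Treml1*, *Gp1ba*, and *Gp5*) and none higher in limma, edgeR, or DESeq2, with 6 lower and 0 higher at an unadjusted *P* under 0.05 in limma. The median log2 fold change was −0.41. *Pf4*, encoding platelet factor 4, fell from 7315 ± 464 to 3523 ± 1138 normalized counts (SD, *n* = 3), a log2 fold change of −1.11 (0.177 SE, limma adjusted *P* = 0.00334). The list's mean deviation was 0.15, 0.44, and 0.053 in WT replicates 2, 3, and 4 and −0.12, −0.42, and −0.11 in the *Irf1-/-* replicates, so replicate 3 was the highest of WT and the lowest of *Irf1-/-* libraries, as for *Ache*. *Mmrn1*, encoding multimerin of platelets, had 32524 normalized counts in WT against 34848 in *Irf1-/-* HSCs and was not called. No marker of the list was at 0 in all libraries. Of these markers, 2 were called lower without WT replicate 3, 3 without *Irf1-/-* replicate 2 or 3, and 6 without WT replicate 4, and none in limma without the intensity trend. *Pf4* and *Gp1bb* were called in all 6 fits that left out 1 library. The part of megakaryocytic transcripts in the lower values of *Klf1*, *Car1*, and *Ache* was not tested.

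Of 30 proliferation genes tested, 4 were called lower (*Top2a*, *Mki67*, *Aurkb*, and *Tpx2*) and 0 higher in limma. All 30 log2 fold changes were negative (median −0.51), each with an unadjusted *P* under 0.05 in limma, and edgeR called 4 lower and DESeq2 7. *Top2a*, encoding the topoisomerase of dividing cells, had 13177, 12858, and 9810.1 normalized counts in WT replicates 2, 3, and 4 and 7874, 8285, and 5166 in the *Irf1-/-* replicates (log2 fold change −0.77 ± 0.158 SE, limma adjusted *P* = 0.0177). The most abundant were the replication genes *Mcm6* (44779 in WT against 33517 in *Irf1-/-* HSCs) and *Mcm3* (34838 and 26591). The mean deviation of the list was 0.36, 0.43, and −0.014 in WT replicates 2, 3, and 4 and −0.11, −0.088, and −0.58 in the *Irf1-/-* replicates. Here *Irf1-/-* replicate 4 was the lowest library, whereas for most members it was replicate 3. The count of called proliferation genes was 0 without *Irf1-/-* replicate 4, WT replicate 2, or WT replicate 3, 7 without *Irf1-/-* replicate 3, and 16 without WT replicate 4. This count was also 0 in limma without the intensity trend. Whether proliferation had a part in the lower values of *Klf1*, *Car1*, and *Ache* was not tested.

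**Figure D3:**
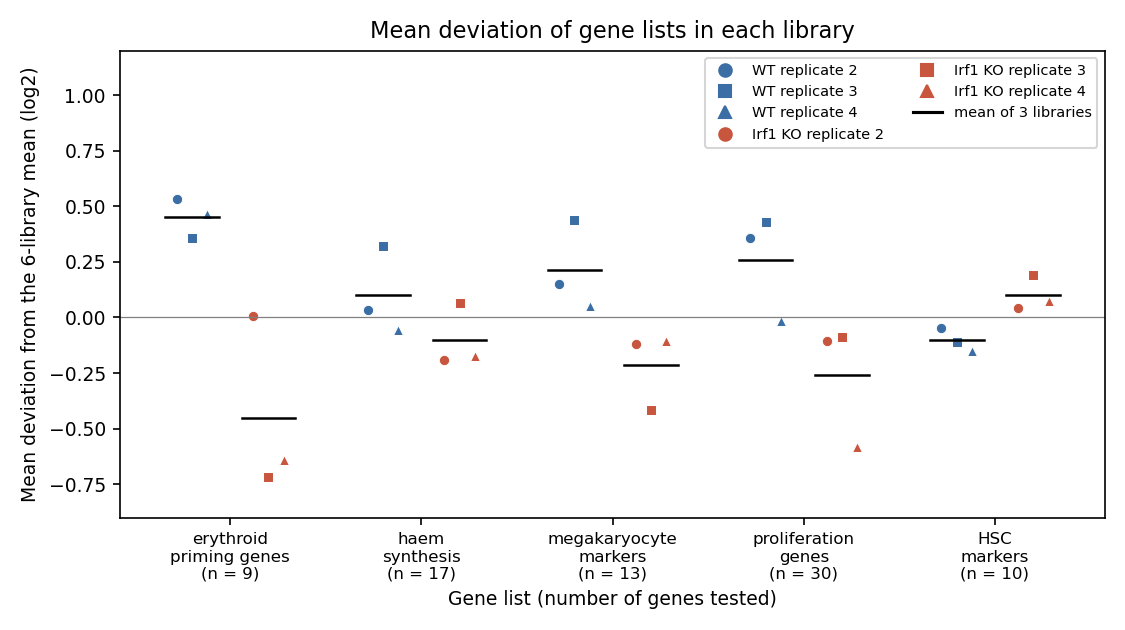
Mean deviation (log2) of the tested genes of 5 lists from their 6-library mean in each library, with WT in blue, *Irf1-/-* in red, a symbol shape for each replicate number, and a black bar for the mean of 3 libraries. The erythroid priming genes, the megakaryocyte markers, and the proliferation genes have every *Irf1-/-* library below every WT library. The HSC markers have every *Irf1-/-* library above every WT library, and the genes of heme synthesis overlap.

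The markers of erythroblasts include *Epor* and the genes of the mature red cell. None of the 9 tested was called by limma, edgeR, or DESeq2, and 0 passed an unadjusted *P* under 0.05 in limma. Their most abundant gene was *Epor*, the erythropoietin receptor gene, with 2191 ± 364 normalized counts in WT against 1789 ± 203 in *Irf1-/-* HSCs (SD, *n* = 3), followed by *Rhag*, a blood group protein gene, with 630.3 ± 114 and 457 ± 160. The summed level of the 13 listed genes was 3954, 4278, and 3207 in WT replicates 2, 3, and 4 and 3351, 2941, and 3160 in the *Irf1-/-* replicates. GATA1 is also a factor of mast cells and eosinophils. None of the 6 mast cell and basophil markers and 3 eosinophil markers tested was called by limma, edgeR, or DESeq2, with 0 at an unadjusted *P* under 0.05 in limma. Their most abundant genes were *Cpa3*, with 252 ± 75.2 normalized counts in WT against 225 ± 19.2 in *Irf1-/-* HSCs, and *Siglecf*, with 111 ± 29.4 and 77.4 ± 44.3. Next came *Prss34* among the mast cell and basophil markers (75.5 in WT against 108 in *Irf1-/-* HSCs) and *Prg2* among the eosinophil markers (25.4 and 25.1). When the filter on low values was dropped, limma called 1 eosinophil marker higher and 0 lower.

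Larger lists of progenitor stages, taken from an earlier data set, were set beside the members. The list for preCFU-E, the erythroid progenitor stage, holds *Ermap* and *Tfrc*. Of its 465 tested genes, 5 were called lower (1.08%) and 5 higher, close to the shares of all tested genes (0.954% and 0.96%). Its median log2 fold change was −0.067, and 63.0% of the values were negative, against 50.4% of all tested genes. At an unadjusted *P* under 0.05 in limma 74 were lower and 32 higher, against 8.07% and 8.38% of all tested genes. DESeq2 called 11 lower and 7 higher. Among the called genes, the largest falls were those of *Igtp*, an interferon-induced GTPase gene (−0.93), *Zdhhc14* (−0.88), *Scly* (−0.75), and *Aarsd1* (−0.59). *Arhgef25* (log2 fold change 1.16), *Tspan8* (1.13), *Nectin2* (1.04), and *Arap3* (0.90) rose most among them. Of these 8 genes, *Igtp*, *Scly*, *Arhgef25*, and *Arap3* were called in all 6 fits that left out 1 library. The count called lower in such fits was 2 without *Irf1-/-* replicate 4 or WT replicate 2, 3 without WT replicate 3, and 10 without WT replicate 4, and the count higher was 3 without *Irf1-/-* replicate 2. *Hnrnpu* (63851 normalized counts in WT against 51991 in *Irf1-/-* HSCs) and *Laptm5* (56117 and 58769) were its most abundant genes. The list for megakaryocyte progenitors (MkP) holds *Ache*, and 20 of its 324 tested genes were called lower (6.17%) and 1 higher (median −0.032). Of the 324 genes, 54 were lower and 36 higher at an unadjusted *P* under 0.05 in limma. *Cap2* (−1.48), *Alox5* (−1.37), *Glrp1* (−1.35), and *Kalrn* (−1.19) fell most among the called genes on the log2 scale, and all but *Glrp1* were called in every fit that left out 1 library. *Gda*, encoding guanine deaminase, was the 1 called higher (0.61), a call that did not hold when *Irf1-/-* replicate 2, *Irf1-/-* replicate 4, or WT replicate 4 was left out. The count called lower went down to 11 when *Irf1-/-* replicate 3 was left out and to 8 when WT replicate 3 was, and the count higher was between 0 and 4 over these fits. *Fermt3*, encoding an integrin activator of platelets, had 63264 normalized counts in WT against 56831 in *Irf1-/-* HSCs and was not called.

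The tested genes nearest in pattern to the called members and to *Gata1* were found by the root mean square difference of their mean-centred log2 values over the 6 libraries. Nearest to *Gata1* were *Cited4*, a transcriptional coactivator gene (difference 0.0658), *Gp5*, a subunit of the platelet von Willebrand factor receptor (0.0952), and *Slc24a3*, an ion exchanger gene (0.106). Of these, *Gp5* was called lower (log2 fold change −0.64, limma adjusted *P* = 0.0337). Nearest to *Klf1* were *H2-Q5*, *Purg*, and *4930554P06Rik* (0.100, 0.106, and 0.122), and *H2-Q5*, an MHC class I gene of a family whose members can share reads, was called lower (−0.79, limma adjusted *P* = 0.0195). The call of *Gp5* ended when replicate 2 or 3 of either genotype was left out (limma adjusted *P* as high as 0.137), and that of *H2-Q5* when replicate 3 of either genotype was (as high as 0.0705).

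For *Ache*, the nearest genes were *3110045C21Rik* (0.0839), *Plek* (0.0851), and *Gp1bb* (0.0916). *Plek* encodes pleckstrin of platelets and was called lower, with 10999, 14941, and 9399 normalized counts in WT replicates 2, 3, and 4 and 7530.5, 4438, and 5838 in the *Irf1-/-* replicates (log2 fold change −0.99, limma adjusted *P* = 0.00745). *Gp1bb*, another platelet receptor subunit gene, was also called (−0.90, limma adjusted *P* = 0.00320), and both were called in all 6 fits that left out 1 library. No gene came close to *Car1*. Its nearest, *Kcnb2*, *C230072F16Rik*, and *Pmaip1*, differed by 0.597, 0.743, and 0.804, had few reads, and were not called.

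Promoter sequences from RefSeq (GRCm38.p6; 250 bases before to 50 bases after each annotated start) matched 6 of the 9 members in 7 windows. No entry was used for *Car1*, *Car2*, and *Gypc*. The motif of GATA factors was searched on both strands as AGATAA and as TGATAA, and also as AGATAG and as TGATAG. It was found in the windows of *Klf1* and *Ermap*, and in 29.8% of all 32851 promoter windows. In both genes the match read TTATCA on the gene's own strand, the reverse complement of TGATAA, and began 80 bases before the start of *Klf1* and 67 bases before that of *Ermap*. These stretches are printed because they hold the only matches to the GATA motif among the members' windows, with the match in capitals. That of *Klf1* spans chr8:84901862-84901947 on the plus strand and that of *Ermap* chr4:119190017-119190102 on the minus strand, both upstream of the annotated start.
Klf1: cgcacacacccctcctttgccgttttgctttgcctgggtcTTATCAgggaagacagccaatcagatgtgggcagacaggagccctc
Ermap: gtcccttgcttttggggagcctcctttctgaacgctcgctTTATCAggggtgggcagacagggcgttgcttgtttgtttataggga
The KLF motif CCACACCC, found in 3.56% of all windows, had no match in the members' windows, and the looser CCNCNCCC, which includes it, had matches in those of *Ache*, *Aqp1*, *Tfrc*, and *Gata1*, against 49.5% of all windows. The motif of IRF factors, GAAA followed by any 2 bases and a further GAAA, had no match in the members' windows and was found in 3.44% of all windows. Matches to letters are a description of these windows and were not tested as binding sites.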

How the data were processed

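HSCs of 3 WT and 3 *Irf1-/-* mice were compared, with groups and replicate numbers from the labels. The values deposited by the authors are a signal derived from counts, namely the reads of a gene scaled by the DESeq2 size factor of its library. Trimming was done with Trim Galore and alignment with HISAT2 (mm39, per the submitters' processing notes), and Htseq-count on Galaxy gave the reads per gene. Versions, strand setting, and annotation are not given in the sources used here, so reads of overlapping genes could be assigned to either. The SMART-Seq v4 cDNA carried no molecular identifiers. All values (100%, tolerance 0.001) were integer multiples of the value of 1 read, so reads were recovered. Libraries of a genotype differed by more than counting error, as separate mice and amplified cDNA will (chi-square per gene 16.0 to 30.0).

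log2(normalized count + 1) values of genes with a mean of at least 10 were fitted with limma 3.58.1 (intensity trend, R 4.3.3), with Benjamini-Hochberg adjustment over 17404 genes. This scale understates changes of genes with low counts. edgeR 4.0.16 (quasi-likelihood) and DESeq2 1.42.0 were run on recovered reads and called 162 and 209 genes lower and 165 and 295 higher. Other alternatives were the pseudocount, the filter, the trend, quantile normalization, median centring, the replicate block, the adjusted *P* alone, and each library left out. Named genes are the members, *Irf1*, the 3 nearest genes of *Gata1* and of each called member, and in each list up to 4 called genes per direction and the 2 most abundant, of which not all are used here. *Ngp*, *Ly6a*, and the globin genes at 0 fell outside this rule and were named after their values were seen. The members and lists were chosen with earlier results of these data known.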

Additional observations from a re-analysis of the deposited data

How the results depend on the processing

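Of the 9 members, *Gypc* alone changed sign, with a log2 fold change of −0.011 after median centring and between −0.069 (WT replicate 4 left out) and 0.11 (WT replicate 3 left out) over the fits on 5 libraries. It was −0.042 with *Irf1-/-* replicate 3 left out. The members called lower numbered between 1 and 4 in these fits, in which between 105 and 265 genes were called lower and between 83 and 304 higher. In limma without the intensity trend, 0 members, 33 genes lower, and 7 genes higher were called. Among all the lists, only those for pGM and CLP then held called genes, 4 and 2 lower. DESeq2 called 295 genes higher, and the adjusted *P* alone gave 260 lower and 301 higher. The cause of these shifts was not tested. edgeR and DESeq2 called *Klf1* and *Ache* but not *Car1*. *Gata1* was called with a pseudocount of 5, a filter at 50, median centring, or without WT replicate 4. Mice with the same replicate number were not treated as pairs. The correlation of their deviations was −0.094, 0.25, and 0.15, and between −0.33 and 0.25 for mice with different numbers. With 3 mice per genotype these values cannot decide whether the mice were paired. With the replicate block 196 genes were called lower and 219 higher, with *Klf1*, *Car1*, and *Ache* still called.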

Other observations

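Other cell types of the bone marrow were examined by their markers. The lineage-negative gate is meant to remove B cells (B220), T cells (CD4 and CD8), monocytes and neutrophils (CD11b and Gr-1), and erythroblasts (Ter119). No B cell, T and NK cell, or endothelial marker was called by limma, edgeR, or DESeq2 (6, 5, and 9 tested). At an unadjusted *P* under 0.05 in limma, 0, 1, and 0 of them were lower and 0, 0, and 4 higher. Of the endothelial markers, 2 were higher by the adjusted *P* alone, and 1 was called higher with quantile normalization, with the replicate block, and in each fit that left out 1 library except *Irf1-/-* replicate 3. *Cd79b* (normalized counts of 2716 ± 210 in WT against 2883 ± 87.9 in *Irf1-/-* HSCs, SD, *n* = 3), *Nkg7* (3032 ± 161 and 2395 ± 224), and *Egfl7* (5076 ± 412 and 6607 ± 186) were their most abundant genes, followed by *Vpreb1* (105 and 69.2), *Klrb1c* (459 and 581), and *Robo4* (4231 and 5557). Of 12 neutrophil and monocyte markers, none was called, with 1 higher at an unadjusted *P* under 0.05 in limma and 0 called by edgeR or DESeq2, and *Lyz2* was the most abundant (26100 ± 2968 and 27876 ± 3151), followed by *Prtn3* (5847 ± 876 and 8429 ± 1259). Their mean deviation was 1.86 in WT replicate 4 and between −0.90 and 0.40 in the other libraries. When WT replicate 4 was left out, 2 of these markers were called higher and the list's median log2 fold change went from −0.14 to 0.63. When WT replicate 2 was left out, 1 was called higher and the median was −0.45. The median was also positive without *Irf1-/-* replicate 2, *Irf1-/-* replicate 4, or WT replicate 3 (0.11, 0.020, and 0.010).

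Markers of other LSK cells and progenitors included *Flt3*, which was called higher, with 2656, 1730, and 2865 normalized counts in WT replicates 2, 3, and 4 and 3442, 4476, and 3460 in the *Irf1-/-* replicates (log2 fold change 0.67 ± 0.164 SE, limma adjusted *P* = 0.0407). This call was lost without any 1 of the *Irf1-/-* replicates or without WT replicate 3. *Cd34*, the most abundant of them, had 16435 ± 553 and 18478 ± 2624 (SD, *n* = 3). The lists for pGM and CLP are those of the granulocyte-monocyte and lymphoid progenitor stages. Of their tested genes, 11 of 221 and 6 of 260 were called higher and 7 and 3 lower, against 0.96% and 0.954% of all tested genes. The median log2 fold changes of the lists were 0.077 and 0.12. At an unadjusted *P* under 0.05 in limma, 44 and 48 were higher and 20 and 14 lower, against 8.38% and 8.07% of all tested genes. The count higher in pGM went down to 5 when *Irf1-/-* replicate 4 was left out and to 7 when WT replicate 3 was. In CLP it was 3 without WT replicate 2 or any 1 *Irf1-/-* replicate, 4 without WT replicate 3, and 10 without WT replicate 4.

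In the pGM list, *Casp12* (log2 fold change −2.47), *Itgb7* (−1.69), *Gbp3* (−1.33), and *Tapbpl* (−1.33) fell most, and *Phldb2* (1.15), *Cebpd* (1.04), *Rab44* (0.93), and *Vldlr* (0.92) rose most, in both cases among the called genes. Among these only *Rab44* lost its call when single libraries were left out, in 4 of 6 such fits. In the CLP list, *Il17rc* (−2.01), *Gbp8* (−1.52), and *Tbxa2r* (−0.59) fell, and *Il10ra* (1.60), *Enho* (0.87), *Kifc2* (0.85), and *Tecpr1* (0.68) rose most among the called genes. Of these, *Il17rc*, *Gbp8*, and *Il10ra* were called in all 6 such fits. *Arpc1b* (40293 normalized counts in WT against 42299 in *Irf1-/-* HSCs) and *Gpi1* (25324 and 25055) were the most abundant genes of the pGM list, and *Malat1* (41117 and 52290) and *Cd47* (29019 and 25075) those of the CLP list.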
